A study of Homo sapiens with 4 samples.

Results

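The translation initiation factor genes examined here were the protein-coding genes of the deposited table whose symbol starts with EIF and a digit. There were 56 such genes among the 51740 rows of the table, and 54 of them had an adjusted p-value and were taken as tested. The genes without an adjusted p-value were EIF4E1B and EIF1AY, and neither is described further. Beside them stood 23333 tested genes in all, of which 15336 were protein-coding. The rule uses the symbol and the biotype of a gene and no measured value.

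RNA came from wildtype HEK293T cells, a human line derived from embryonic kidney that expresses large T antigen of SV40. All cells were crosslinked with formaldehyde and then split into a nuclear and a cytoplasmic fraction, with 2 biological replicates of each, so that no sample was untreated and the line is the only cell type. The comparison asks in which fraction the RNA of each gene is higher relative to the other RNAs of that fraction. Intronic reads were counted along with exonic ones, so a value covers unspliced and spliced RNA of the gene. Each of the 4 libraries was made from 400 ng of RNA, so a value is not an amount per cell but a count relative to the other genes, on the scale set by the size factors of the authors. The table gives a single mean and a single fold change per gene, so values of single libraries are not shown, and the mean of each fraction was derived from those columns.

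Initiation is the step that places a ribosome on an mRNA at its start codon. eIF2 brings the initiator tRNA as a complex with GTP, eIF3 holds the small ribosomal subunit open for mRNA, and the cap-binding eIF4E, the scaffold eIF4G and the helicase eIF4A recruit that subunit to the capped 5′ end. eIF1, eIF1A and eIF5 guide the choice of the start codon, and eIF5B promotes joining of the large subunit. Supply of active eIF2 depends on the exchange factor eIF2B, and kinases that phosphorylate eIF2 lower it under stress. Many mRNAs of the translation apparatus begin with a terminal oligopyrimidine (TOP) tract, a C at the cap followed by further pyrimidines, which links their translation to nutrient signals through mTOR and LARP1.

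The fractions were checked first, and marker genes of the line were looked up. The nuclear RNAs MALAT1 and NEAT1 had log2 fold changes, cytoplasm over nucleus, of -3.47 and -3.09. All 7 HEK293T marker genes were tested, with mean normalized counts from 63.1 for PAX2 to 18261 for VIM. This does not identify the line, since 15336 of the 19041 protein-coding genes were tested. The low counts of the table imply from 21567507 to 24481541 counts per library, on the assumption that both libraries of a fraction have the same normalized sum.

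Most initiation factor genes had a higher normalized count in cytoplasmic than in nuclear RNA. Of the 54 tested members, 43 were higher in the cytoplasmic fraction and are called cytoplasmic below, 4 were higher in the nuclear fraction and are called nuclear, and 7 did not pass an adjusted p-value of 0.01 in the DESeq2 test of the authors. Among all tested genes, 25.9% were called cytoplasmic and 26.5% nuclear, and among tested protein-coding genes these shares were 35.6% and 28.4%. The members called cytoplasmic were 79.6% of those tested and the members called nuclear 7.41%. A share called also depends on precision. Median standard errors were 0.13 for members, 0.17 for tested protein-coding genes and 0.29 for all tested genes. The median log2 fold change of the members was 1.49, with a middle range from 0.65 to 2.24 between quartiles. It was 0.11 over tested protein-coding genes and -0.12 over all tested genes. Together the members held 1.21% of the normalized counts of the cytoplasmic fraction and 0.634% of those of the nuclear fraction.

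The zero point of these fold changes depends on the scaling. The normalized counts summed to 28705052 for cytoplasm and 18136040 for nuclei, and setting both sums equal lowers every log2 fold change by 0.66. On that scale the member median was 0.83, against -0.55 for protein-coding genes and -0.78 for all tested genes, and 36 members were called cytoplasmic and 8 nuclear. Of the 23333 tested genes, 3777 were then cytoplasmic and 8930 nuclear, against 6046 and 6175 on the scale of the authors. With Bonferroni adjustment in place of Benjamini-Hochberg, 38 members were cytoplasmic and 2 nuclear, EIF4G3 and EIF5B. Among all tested genes that adjustment left 4378 cytoplasmic and 3999 nuclear calls.

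**Figure D1:**
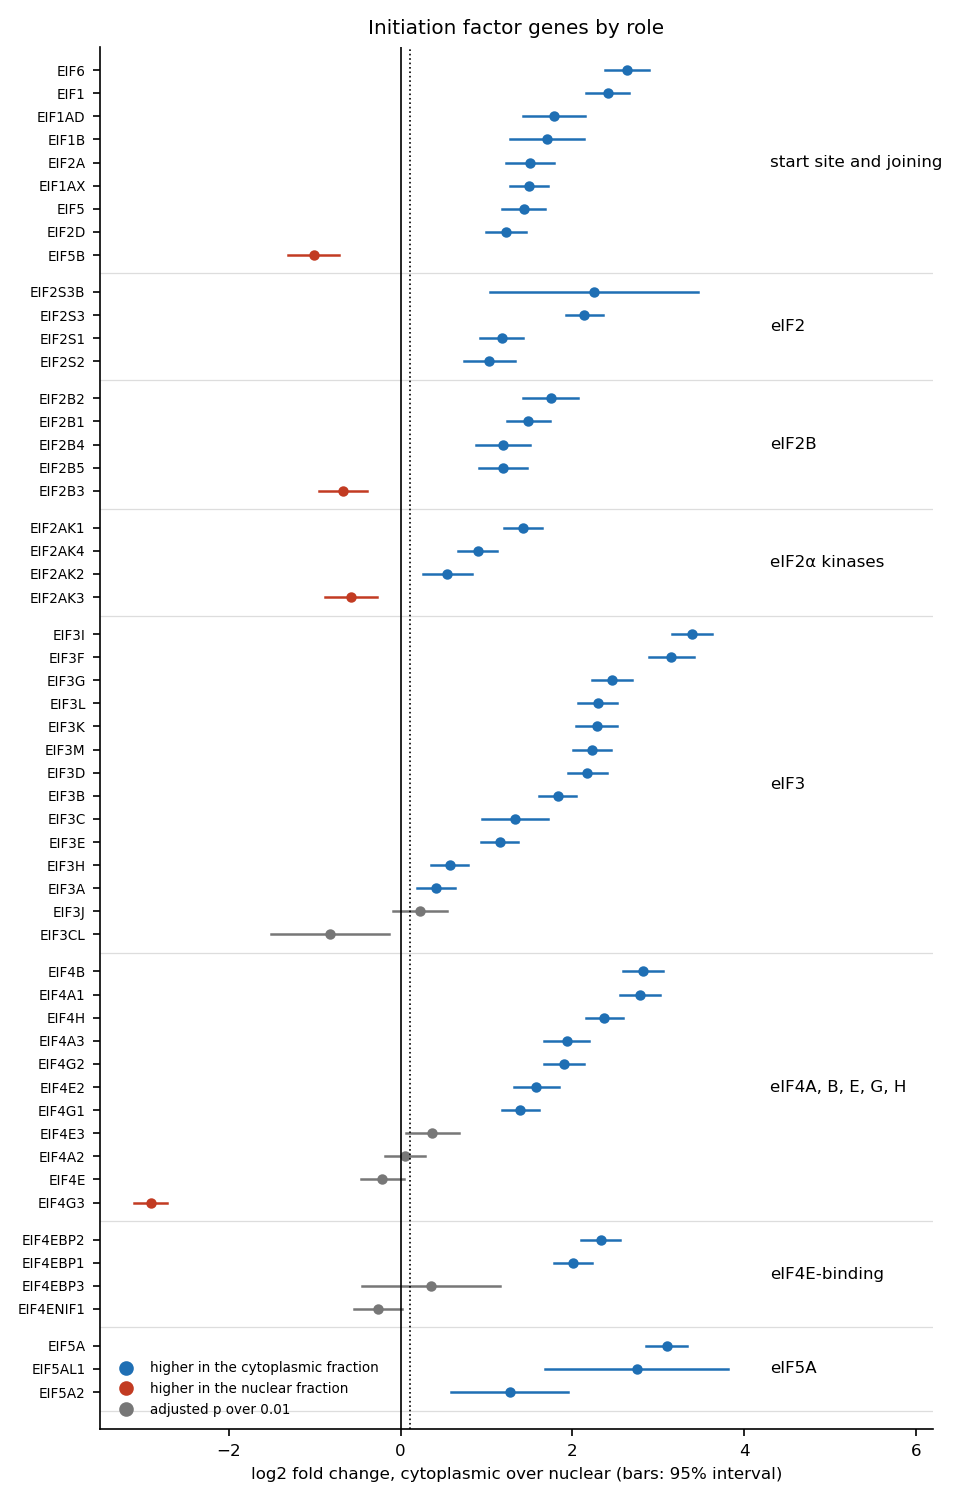
Log2 fold change (x axis, cytoplasmic over nuclear) of the 54 tested initiation factor genes (rows), grouped by role, with 95% intervals from the standard error; the solid line marks 0 and the dotted line the median of protein-coding genes at 0.11. In most groups the genes lie right of both lines, and EIF4G3 at -2.91 stands apart from the rest; with equal library totals every point moves left by 0.66, and the 7 points between 0 and 0.66 change sign.

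Before the values by role, the starts of the mRNAs are shown, because the TOP tract is the sequence feature best known for translation factors. A run was counted where the MANE Select transcript in GENCODE 44 starts with C and at least 4 more bases follow that are each C or T without a break, read on the transcript's own strand. Of the 54 tested members, 16 (29.6%) had such a run, whereas 782 of 15192 tested protein-coding genes with a MANE Select transcript (5.15%) had one. In eIF3 it was 10 of 14 genes. The lines below give the first 20 bases of the mRNA, 5′ to 3′, with the run in capitals, for eIF3 genes with and without a run and for both eIF4A genes of cap-dependent initiation.
EIF3D: CTCTTTTCCTggtttctcaa
EIF3F: CTTCTTTCTCgacaagatgg
EIF3K: CTCTTCCTgttcccgtcctt
EIF3M: CTTTTCCggtcggcgtggtc
EIF3A: CCTTTCCgtctctggccggc
EIF3L: CTTTCCggcggtgctcgcaa
EIF3I: actcacgttgcggccttcct
EIF3B: atggctgggctgtagccgtc
EIF4A1: cctagtttctaaggatcatg
EIF4A2: CTTTTCagtcgggcgctgag
These bases lie on hg38 at chr22:36529147-36529166 (minus strand) for EIF3D, chr11:7987337-7987356 (plus) for EIF3F, chr19:38619188-38619207 (plus) for EIF3K, chr11:32583831-32583850 (plus) for EIF3M, chr10:119080798-119080817 (minus) for EIF3A and chr22:37849419-37849438 (plus) for EIF3L. Those of EIF3I are at chr1:32222407-32222426 (plus), of EIF3B at chr7:2354827-2354846 (plus), of EIF4A1 at chr17:7572825-7572844 (plus) and of EIF4A2 at chr3:186783577-186783596 (plus), each in the 5′ exon of its gene.

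Every gene of the eIF3 octamer built from PCI and MPN domain subunits (EIF3A, EIF3C, EIF3E, EIF3F, EIF3H, EIF3K, EIF3L and EIF3M) had a run, as did EIF3D and the copy EIF3CL, while EIF3B, EIF3G, EIF3I and EIF3J did not reach 5 bases. The run of EIF3C is less certain, since its start lay 22906 bases from its RefSeq start. EIF3A, EIF3E, EIF3H and EIF3L were not compared with RefSeq. Outside eIF3, runs stood at the start of EIF2S3, EIF2S3B, EIF2A, EIF2D, EIF4B and EIF4A2. Among the members with a run, 14 were cytoplasmic, none was nuclear, and EIF4A2 and EIF3CL did not pass the test, while of 782 tested protein-coding genes with a run 399 were cytoplasmic and 188 nuclear. Both EIF4A2 (-0.61, adjusted p = 9.53e-07) and EIF3CL (-1.49, adjusted p = 4.92e-05) became nuclear calls with equal library totals. The 38 members without a run included 29 cytoplasmic and all 4 nuclear calls. The median log2 fold change was 1.82 with a run and 1.46 without, and in tested protein-coding genes 0.67 and 0.09. The gap between the member medians depends on the minimum length. With other minimums, chosen after seeing the data, they were 2.14 and 1.43 at 4 bases, 1.51 and 1.49 at 6 bases, and 1.84 and 1.46 at 8 bases. Within eIF3 the order itself depends on it, with medians of 1.75 for the 10 genes with a run and 2.15 for the 4 without, but of 2.18 and 1.83 at a minimum of 4 or of 8 bases. No test was made of these differences, and a run in the annotation is not evidence of where transcription starts in these cells.

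**Figure D2:**
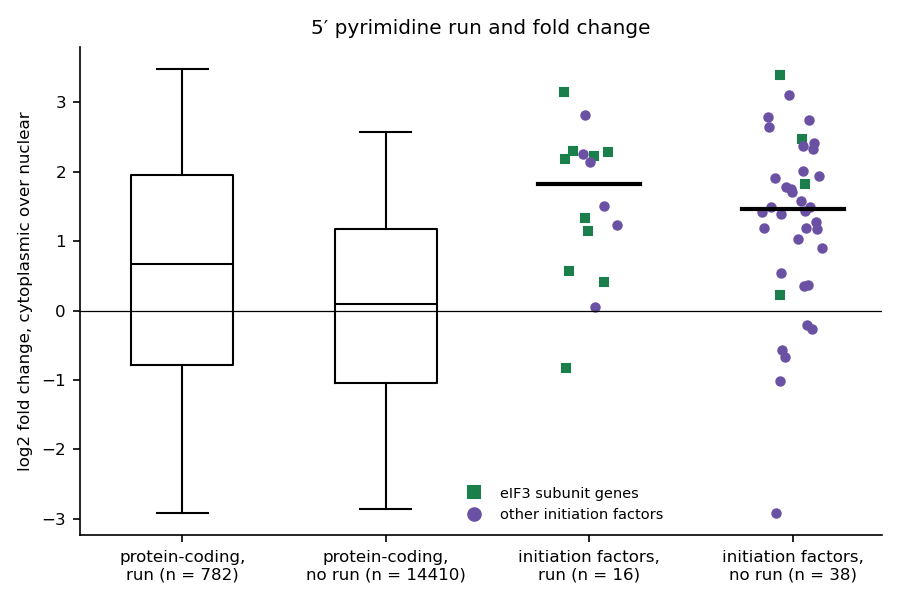
Log2 fold change (y axis, cytoplasmic over nuclear) by whether the mRNA starts with a pyrimidine run of at least 5 bases; boxes show the median and quartiles of tested protein-coding genes, members included, with whiskers from the 5th to the 95th percentile, and points show single initiation factor genes with their median as a bar. The member medians are 1.82 and 1.46, and eIF3 genes (squares) cover the range from -0.83 to 3.15 with a run; every value falls by 0.66 with equal library totals, which moves the protein-coding median without a run below 0.

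The eIF3 complex is the largest initiation factor, a scaffold that binds the small ribosomal subunit and keeps contacts to eIF4G, eIF1 and eIF5. Of its 14 tested genes, 12 were cytoplasmic and none was nuclear, with a median log2 fold change of 2.00. The eIF3 genes spread widely all the same. EIF3I, which encodes a WD40 repeat subunit, had a derived nuclear mean of 1059 normalized counts and a cytoplasmic mean of 11160 (log2 fold change 3.40, standard error 0.12, adjusted p = 6.63e-179). This was the most cytoplasmic value of any member, and 98.7% of tested protein-coding genes had a lower one. EIF3F, an MPN domain subunit, had means of 888 and 7888 (3.15, standard error 0.13, adjusted p = 2.58e-121). EIF3G, an RNA-binding subunit bound to EIF3I, had means of 1210 and 6681 (2.47, standard error 0.12, adjusted p = 1.48e-92).

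A cluster of eIF3 subunit genes followed whose values did not differ beyond their errors. EIF3L was at 2.30, EIF3K at 2.28, EIF3M at 2.23 and EIF3D, the subunit that can itself bind certain caps, at 2.18, with standard errors of 0.11 to 0.12. EIF3B, the core subunit with an RNA recognition motif, was at 1.83. Lower still were EIF3C at 1.33 and EIF3E, the subunit known as INT6, at 1.15.

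EIF3H and EIF3A were only slightly cytoplasmic. EIF3H, the other MPN domain subunit, had a nuclear mean of 2680 and a cytoplasmic mean of 3986 (0.57, standard error 0.11, adjusted p = 4.37e-07). EIF3A, the largest subunit and a base of the octamer, had means of 5958 and 7945 (0.42, standard error 0.11, adjusted p = 0.000441). With equal library totals EIF3H moved to -0.09 and EIF3A to -0.25, neither of which passed the threshold, so their direction is not settled. EIF3J, the loosely bound subunit at the decoding site, was at 0.22 (95% interval -0.09 to 0.54, adjusted p = 0.232) and turned to -0.44 on that scale.

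Among the called eIF3 genes, the range from EIF3A to EIF3I corresponds to RNA fold changes of 1.33 and 10.5 for subunits of the same complex. EIF3J and EIF3CL, which were not called, lay lower. The lower end depends on the scaling, since EIF3A was at -0.25 with equal library totals. Per kb of the MANE Select transcript, the cytoplasmic level of the 12 eIF3 genes other than EIF3C and EIF3CL ran from 490 normalized counts for EIF3J over a median of 3704 to 7853 for EIF3I. These levels rest on the annotated length, which is 6.92 kb for EIF3F and 0.77 kb for EIF3K, and intronic reads were counted too, so only their rough order can be read.

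eIF2 is the GTPase that carries the initiator tRNA, and all 4 of its tested genes were cytoplasmic. EIF2S3, the gamma subunit that binds the tRNA, was the highest of the 3 subunits at 2.14 (standard error 0.11), from a nuclear mean of 6098 to a cytoplasmic mean of 26838. EIF2S1, the alpha subunit and the target of the stress kinases, was at 1.18, and EIF2S2, the beta subunit, at 1.03, with 95% intervals of 0.93 to 1.43 and 0.74 to 1.33 that overlap each other and not that of EIF2S3. The copy EIF2S3B, whose MANE Select transcript has 1 exon, was at 2.25, but it rested on about 24 nuclear and 73 cytoplasmic counts. Its coding sequence matched that of EIF2S3 in 98.2% of aligned bases, and the handling of reads shared by both is not stated. With equal library totals, EIF2S2 was at 0.37 and EIF2S3B at 1.59, and neither passed the threshold.

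eIF2B reloads eIF2 with GTP and has 5 different subunits, encoded by genes that did not all go the same way. EIF2B2 was at 1.75, EIF2B1 at 1.49, EIF2B4 at 1.19 and EIF2B5, the catalytic epsilon subunit, at 1.19, and all 4 were cytoplasmic. EIF2B3, which encodes the gamma subunit that pairs with epsilon, was higher in the nuclear fraction, with a nuclear mean of 2353 and a cytoplasmic mean of 1474 (-0.67, standard error 0.14, adjusted p = 6.12e-06). EIF2B3 (chromosome 1, 44850522 to 44986722, minus strand) spans 136 kb, while the other 4 genes span from 5.99 to 13.4 kb.

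The 4 kinases of eIF2 alpha, each of which responds to another kind of stress, were ordered as EIF2AK1, EIF2AK4, EIF2AK2 and EIF2AK3. EIF2AK1 (HRI), the kinase of heme shortage, was at 1.43 with a standard error of 0.11. EIF2AK4 (GCN2), which senses uncharged tRNA, had means of 1687 nuclear and 3140 cytoplasmic (0.90, standard error 0.12, adjusted p = 1.18e-13). EIF2AK2 (PKR), the sensor of double-stranded RNA, had means of 1283 and 1873 (0.55, standard error 0.15, adjusted p = 0.000415). EIF2AK3 (PERK), the kinase of the endoplasmic reticulum, was the only one higher in the nuclear fraction, with means of 825 and 554 (-0.57, standard error 0.15, adjusted p = 0.000453). With equal library totals EIF2AK4 moved to 0.23 and EIF2AK2 to -0.12, and neither passed the threshold.

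Factors of start codon choice and subunit joining were mostly cytoplasmic, with 8 of 9 higher in that fraction. EIF6, which keeps the large subunit from joining too early, had means of 514 nuclear and 3206 cytoplasmic (2.64, standard error 0.13, adjusted p = 4.24e-87). EIF1, the gatekeeper of start codon choice, had means of 1941 and 10351 (2.41, standard error 0.13, adjusted p = 5.92e-78). EIF1AD, a relative of eIF1A, had means of 200.0 and 689 (1.79, standard error 0.18, adjusted p = 1.7e-21), and EIF1B, a copy of EIF1, had means of 116 and 377 (1.70, standard error 0.22, adjusted p = 4.88e-14). EIF1AX, the eIF1A gene of the X chromosome, had means of 2055 and 5801 (1.50, standard error 0.11, adjusted p = 3.34e-38). Close to it lay EIF2A, an alternative carrier of the initiator tRNA, at 1.51, EIF5, the GTPase activator of eIF2, at 1.43 and EIF2D, a recycling factor, at 1.23. The exception was EIF5B (chromosome 2, 99337371 to 99401326, plus strand), the GTPase that promotes subunit joining. It was higher in the nuclear fraction, with means of 1386 nuclear and 687 cytoplasmic (-1.01, standard error 0.15, adjusted p = 1.37e-10).

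The eIF4 group, which recruits the small subunit to the cap and unwinds the leader, held strongly cytoplasmic genes beside the most nuclear one. EIF4B, a helicase cofactor, had means of 5440 nuclear and 38503 cytoplasmic (2.82, standard error 0.12, adjusted p = 6.97e-129). EIF4A1, the main helicase, had means of 5504 and 38107 (2.79, standard error 0.12, adjusted p = 3.23e-120). EIF4H, a smaller cofactor related to EIF4B, followed with means of 2601 and 13493 (2.38, standard error 0.11, adjusted p = 2.28e-103). EIF4A3, the helicase of the exon junction complex, had means of 665 and 2540 (1.93, standard error 0.13, adjusted p = 2.12e-47). EIF4G2, a scaffold that lacks the part that binds eIF4E, had means of 3502 and 13128 (1.91, standard error 0.12, adjusted p = 1.75e-56). The cap-binding repressor EIF4E2 had means of 597 and 1785 (1.58, standard error 0.13, adjusted p = 5.04e-31), and the main scaffold EIF4G1 means of 7595 and 19997 (1.40, standard error 0.11, adjusted p = 3.44e-36). In all, 7 of the 11 tested genes of this group were cytoplasmic and 1 was nuclear.

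The gene of the cap-binding protein itself behaved otherwise. EIF4E had a nuclear mean of 1506 and a cytoplasmic mean of 1299 (-0.21, standard error 0.13, 95% interval -0.46 to 0.04, adjusted p = 0.145). EIF4E3, another cap-binding relative, had means of 498 and 644 (0.37, standard error 0.16, adjusted p = 0.033) and missed the threshold. With equal library totals EIF4E moved to -0.87 and passed the threshold in the nuclear direction (adjusted p = 3.08e-11), while EIF4E3 turned to -0.29 and did not.

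EIF4G3 (chromosome 1, 20806292 to 21177285, minus strand), a scaffold related to EIF4G1, was the most nuclear of all members. Its derived means were 21186 nuclear and 2814 cytoplasmic counts (-2.91, standard error 0.10, adjusted p = 2.75e-182). Of all tested protein-coding genes, 4.88% had a lower value. Among the 1410 protein-coding genes that span over 200 kb, the share with a lower value was 21.99%. EIF4G3 spans 371 kb, and its MANE Select transcript of 6.40 kb is spliced from 37 exons. The introns of that transcript add up to 364 kb, and the part of intronic reads in the value of EIF4G3 was not tested. EIF4G3 held 18.4% of the nuclear and 0.809% of the cytoplasmic counts of all members together.

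**Figure D3:**
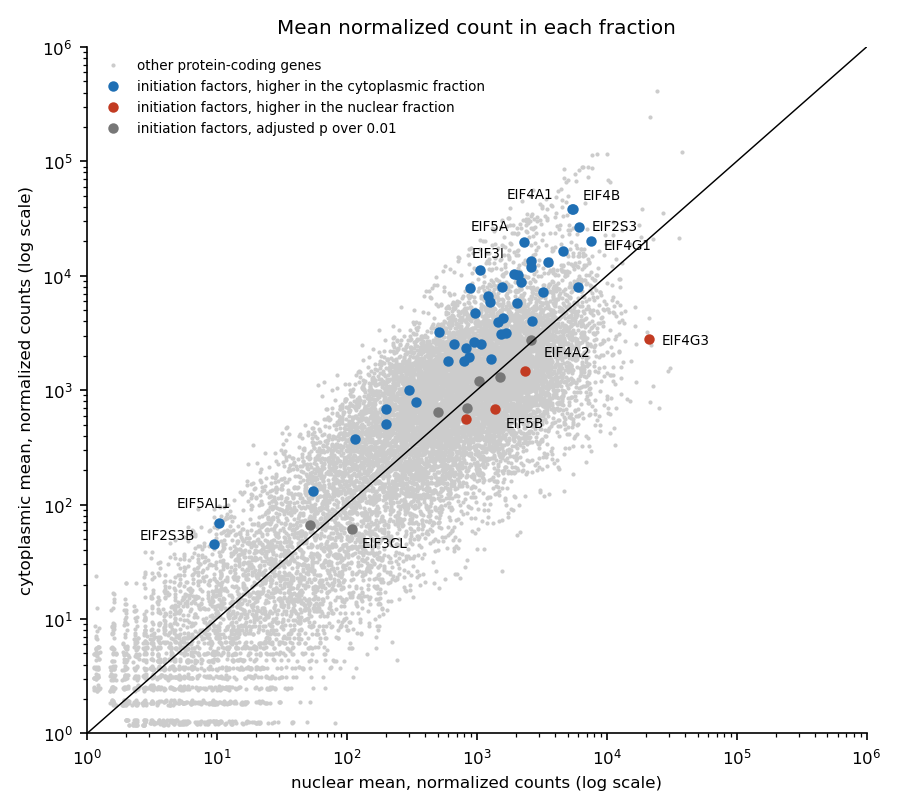
Derived mean normalized count in the nuclear (x axis) and cytoplasmic fraction (y axis), both on log scales; large points are the 54 tested initiation factor genes, small points other protein-coding genes, and the line marks equal means. EIF4G3 lies far below the line at 21186 nuclear and 2814 cytoplasmic counts and EIF4A1 and EIF4B nearly coincide above it; counts are not corrected for gene length.

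The 4E-binding proteins block the contact of eIF4E with eIF4G when mTOR is inactive, and their genes did not all go the same way. EIF4EBP2 had means of 1573 and 7913 (2.33, standard error 0.12, adjusted p = 2.87e-88) and EIF4EBP1 means of 2207 and 8858 (2.01, standard error 0.11, adjusted p = 5.1e-70), and both were cytoplasmic. EIF4EBP3 was at 0.35 with a wide 95% interval of -0.45 to 1.16 and means of 51.6 and 66.0. EIF4ENIF1, which encodes the protein that carries eIF4E into the nucleus, was at -0.26 (-0.55 to 0.02, adjusted p = 0.107). With equal library totals EIF4ENIF1 was at -0.93 and passed the threshold in the nuclear direction, and EIF4EBP3 turned to -0.31 without passing it.

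eIF5A carries the modified lysine hypusine and acts mainly in elongation, although it was named as an initiation factor. EIF5A had means of 2324 nuclear and 19920 cytoplasmic (3.10, standard error 0.12, adjusted p = 7.53e-143), the third highest fold change among the members. EIF5A2, its tissue-restricted relative, had means of 54.9 and 133 (1.27, standard error 0.35, adjusted p = 0.000554) and did not pass the threshold with equal library totals. The intronless copy EIF5AL1 had means of 10.3 and 69.2 (2.75, standard error 0.55, adjusted p = 1.24e-06), which rest on about 26 nuclear and 111 cytoplasmic counts.

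Related genes were compared in 13 pairs fixed by family. The pairs are not equally close, with identity of the aligned coding sequences from 27.1% for EIF4B and EIF4H to 99.9% for EIF3C and EIF3CL. EIF2S3 and EIF2S3B, at 98.2%, were not among them. The difference of the log2 fold changes is given with a combined standard error that treats both estimates as independent, and no test was made of it. In 11 pairs the 95% interval of the difference did not include 0. No such share was worked out for pairs of unrelated genes, so the count is not a result about related genes. Log2 fold changes of tested protein-coding genes had quartiles of -1.04 and 1.21, so unrelated genes often differ as well. Scaling does not enter the differences, since a shift of all values cancels in them.

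EIF4G1 and EIF4G3 differed most, by 4.31 (standard error 0.15), while EIF4G1 was below EIF4G2 by 0.51 (95% interval of the difference -0.83 to -0.19). EIF4G1 spans 20.9 kb and EIF4G3 371 kb.

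The eIF4A pair differed by 2.74 (standard error 0.17), or 6.67-fold, although both genes are short, with spans of 6.18 kb for EIF4A1 and 6.69 kb for EIF4A2, both have 11 exons in their MANE Select transcripts, and their coding sequences were identical in 76.7% of aligned bases. EIF4A2 had means of 2631 nuclear and 2731 cytoplasmic, a log2 fold change of 0.05 (standard error 0.12, 95% interval -0.18 to 0.29, adjusted p = 0.721). It turned to -0.06 when centred on the protein-coding median and to -0.61, a nuclear call, with equal library totals. Among the 2811 protein-coding genes that span under 10 kb, 16.7% had a lower value than EIF4A2 and 83.1% a lower one than EIF4A1. It is EIF4A2 whose mRNA starts with a pyrimidine run, as printed above. Annotated snoRNA genes lie inside both, 3 in EIF4A1 and 5 in EIF4A2. None of these snoRNA genes has a row of its own in the deposited data, and their part in the counts was not tested. EIF4A1 also exceeded EIF4A3, by 0.86 (standard error 0.18).

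EIF5A exceeded EIF5A2 by 1.83 (standard error 0.37), with 71.4% identity of the coding sequence. EIF4E was below EIF4E2 by 1.79 (interval of the difference, EIF4E minus EIF4E2, -2.16 to -1.43) and below EIF4E3 by 0.58 (-0.98 to -0.18). EIF1 exceeded EIF1B by 0.71 (0.21 to 1.21) at 82.0% identity. EIF4B exceeded EIF4H by 0.45 (0.14 to 0.76), and EIF4EBP2 exceeded EIF4EBP1 by a margin near its error, the difference of EIF4EBP1 minus EIF4EBP2 being -0.33 (-0.64 to -0.01). For EIF1AX and EIF1AD the interval reached from -0.71 to 0.14, which leaves a difference of that size possible.

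The near-identical copies are uncertain, because a read that fits both genes cannot be placed. EIF3C had means of 201 nuclear and 505 cytoplasmic (1.33, standard error 0.20, adjusted p = 3.08e-11), and EIF3CL had means of 109 and 61.3 (-0.83, standard error 0.35, adjusted p = 0.0319). EIF3CL passed the threshold in the nuclear direction, at -1.49, on the scale of equal totals. Their coding sequences were identical in 99.9% of aligned bases, and the part of shared reads in the difference of 2.16 (standard error 0.40) was not tested. EIF5A and EIF5AL1, at 98.9% identity, differed by 0.35 with an interval of -0.74 to 1.44.

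**Figure D4:**
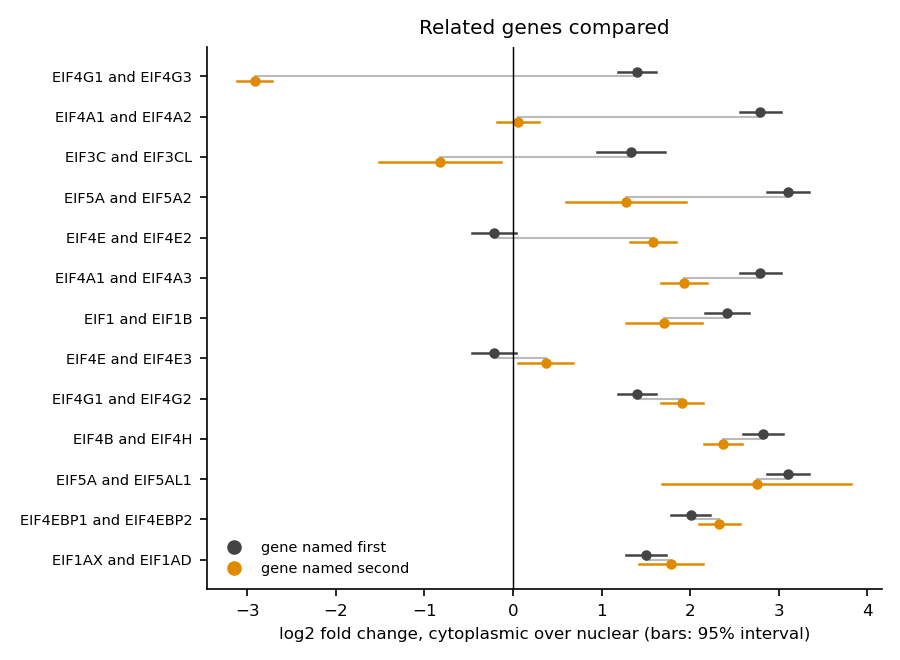
Log2 fold changes (x axis, cytoplasmic over nuclear) of the 13 pairs of related genes (rows), with the gene named first in dark grey, the gene named second in orange, and 95% intervals as bars. Pairs are ordered by the size of their difference, from 4.31 for EIF4G1 and EIF4G3 down to 0.29 for EIF1AX and EIF1AD. With equal library totals all points move left by 0.66, and EIF4A2 and EIF4E3 change sign.

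Fold change and gene span moved together in the members as in other protein-coding genes. Spearman's rho between span and log2 fold change was -0.50 over the 54 members and -0.60 over 15329 protein-coding genes, a description across genes, which share the same 4 libraries and are not independent replicates. Without EIF4G3 it was -0.48. The 12 members that span under 10 kb had a median of 2.10 with 10 cytoplasmic and no nuclear calls, whereas the 2811 protein-coding genes of that class had a median of 1.70, with 64.2% cytoplasmic and 5.34% nuclear. Between 10 and 50 kb lay 32 members with a median of 1.54 and 29 cytoplasmic calls, and no nuclear ones, against 0.52 over 6473 genes, of which 45.3% were cytoplasmic and 14.5% nuclear. Above 50 kb lay 10 members with a median of 0.05, 4 cytoplasmic and 4 nuclear calls, against -0.85 over 6045 genes, of which 11.8% were cytoplasmic and 54.0% nuclear. On the scale of the authors all 4 nuclear members span over 50 kb, and the cytoplasmic ones of that class were EIF3E, EIF2AK4, EIF3H and EIF2AK2. This depends on the scaling: EIF4A2 (6.69 kb), EIF3CL (24.3 kb), EIF4E (49.9 kb) and EIF4ENIF1 (59.1 kb) were nuclear as well with equal library totals, and EIF2AK4, EIF3H and EIF2AK2 were not called.

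Some gene spans are set by a single long transcript, which matters most for EIF3E, whose span is 281 kb and whose MANE Select transcript covers 47.5 kb. By the span of the MANE Select transcript, an alternative chosen after seeing the data, 8 members lay above 50 kb, with a median of -0.42, 3 cytoplasmic and 4 nuclear calls, against -0.93 for protein-coding genes. Intronic reads were counted along with exonic ones, and their part in this relation was not tested.

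**Figure D5:**
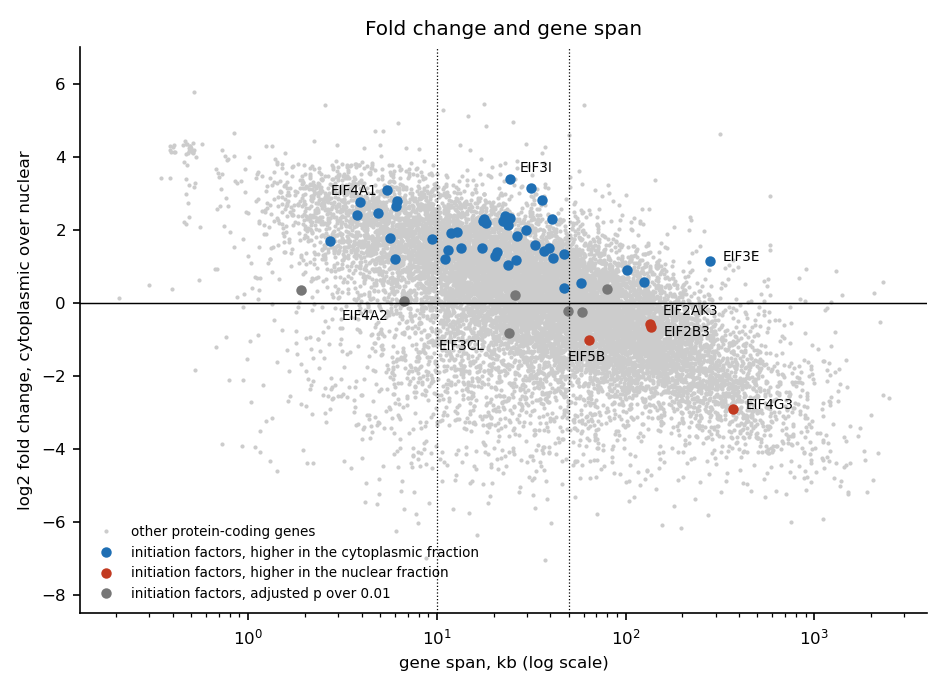
Log2 fold change (y axis, cytoplasmic over nuclear) against gene span in kb (x axis, log scale), with dotted lines at 10 and 50 kb; large points are the 54 tested initiation factor genes and small points other protein-coding genes. Both fall with span, the 4 members higher in the nuclear fraction lie right of 50 kb, and EIF4A2 sits low among short genes; with equal library totals all points move down by 0.66, and EIF4A2, EIF3CL and EIF4E, left of 50 kb, are nuclear calls too.

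Other genes of translation were counted from lists of elongation, termination, partner and mitochondrial factors, to be read beside 35.6% cytoplasmic and 28.4% nuclear calls among tested protein-coding genes. Of 9 elongation genes, 6 were cytoplasmic (66.7%) and 1 was nuclear (11.1%), with a median of 2.19 that was 1.53 with equal library totals. EEF1A1, which brings aminoacyl-tRNA to the ribosome, was at 4.09, above every initiation factor, and EEF2, the translocase, at 3.50. The nuclear one was EEFSEC, the selenocysteine elongation factor, at -2.24 with a span of 255 kb. Of 6 termination and recycling genes, 5 were cytoplasmic (83.3%) and none was nuclear, with medians of 1.50 and 0.84 on these scales.

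Among 29 partners and regulators of initiation, 19 were cytoplasmic (65.5%) and 5 nuclear (17.2%), with a median of 0.90 that was 0.23 with equal library totals. ATF4, the transcription factor translated when eIF2 is phosphorylated, was at 3.37, and the TOP mRNA-binding LARP1 at 0.86. The nuclear calls were CTIF (-1.55), GIGYF2 (-1.51), RPTOR (-1.35), RPS6KB1 (-1.07) and METAP1 (-0.51), and each of these genes spans over 50 kb. Genes over 50 kb were also cytoplasmic in this list, namely BZW2 (1.33), CYFIP1 (1.08), LARP1 and GCN1 (0.68). MTOR, MKNK1 and DHX29, which span over 50 kb too, were not called. Of 9 factors of mitochondrial translation, 4 were cytoplasmic (44.4%) and 2 nuclear (22.2%), shares near those of protein-coding genes, with a median of 0.24 that turned to -0.42 with equal library totals. No difference between these lists and the initiation factors was tested.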

How the data were processed

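RNA of nuclear and cytoplasmic fractions was sequenced as stranded libraries with ribosomal RNA depleted, from both ends for 100 nt. Per the labels and the methods of the study, the authors aligned reads to hg38 with STAR, counted them with featureCounts 2.0.2 (overlap of at least 20 nt) over exons and introns in an annotation derived from GENCODE 34, from which stretches shared by genes and readthrough transcripts had been removed, and compared fractions with DESeq2, whose version is not given in the sources used here. How multi-mapping reads of these libraries were treated is not stated. The authors' deposited table holds, per gene, a signal (the mean normalized count over all 4 libraries), the log2 fold change with its standard error, a Wald score, and the p-value and adjusted p-value. As it gives no value per library, no count test was run, and these columns are reported as the authors' estimates. The score differed from fold change over standard error by at most 1.79e-07.

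Fraction means were derived from mean and fold change. The size of 1 count in each library, read from the lowest means, gave size factors of 1.34 and 1.19 for the nuclear and 0.853 and 0.755 for the cytoplasmic libraries, and from them the approximate counts of rare genes. Standard errors are the estimates of DESeq2 from 2 libraries per fraction, and the spread between the libraries of a single gene could not be seen. Tested genes had an adjusted p-value, and a call was an adjusted p-value of at most 0.01, adjusted over all tested genes. Structure, coordinates and 5′ ends came from GENCODE 44 on hg38, which matched all 54 tested members and 99.95% of tested protein-coding genes. In GENCODE 44 another gene on the same strand covers 100% of the MANE Select exons of EIF4A1 and EIF4E3, 99.0% for EIF4EBP3, 58.5% for EIF3L and 53.6% for EIF6, and how much of these exons was counted is not known. Of the 16 genes with a pyrimidine run, 10 were set against an entry of the same symbol in the RefSeq promoter table (GRCh38.p14), and 9 of these began at the same base. The exception was EIF3C, whose start lay 22906 bases away. Coding sequences were aligned globally with Biopython 1.88. Shifted p-values were recomputed from the normal distribution (scipy 1.17.1) with Benjamini-Hochberg adjustment, a step tested on simulated data.

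Every tested member is named with its fold change; both means, standard error and adjusted p-value are given for the 8 most positive and 8 most negative called members with a mean over 50 and for the members of related pairs. Members and lists were chosen with earlier results of these data known. Alternatives were equal library totals, centring on the protein-coding median (0.11), Bonferroni adjustment, a threshold of 0.05, a mean over 50, an absolute log2 fold change over 0.5, and leaving out near-identical copies.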

Additional observations from a re-analysis of the deposited data

How the results depend on the processing

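The count of cytoplasmic members lay between 36 and 44 under the 7 alternatives run, against 43 of 54; it was 41 of 52 with a mean over 50 and 41 of 51 without near-identical copies. The count of nuclear members was 4, rose to 8 with equal library totals and fell to 2 with Bonferroni adjustment, where EIF2B3 and EIF2AK3 no longer passed. The other alternatives gave 4 or 5. Over all tested genes the nuclear count moved as well, from 6175 to 8930 with equal library totals and to 3999 with Bonferroni adjustment. Their cytoplasmic count was 6046, with 3777 at equal library totals, 4378 with Bonferroni adjustment and 6702 at a threshold of 0.05. The median log2 fold change of 1.49 moved to 0.83 with equal library totals and to 1.70 over called members alone, and was 1.38 centred on the protein-coding median, 1.46 over members with a mean over 50 and little changed without near-identical copies. With equal library totals, 7 members changed sign: EIF3H to -0.0899, EIF2AK2 to -0.12, EIF3A to -0.25, EIF4E3 to -0.29, EIF4EBP3 to -0.31, EIF3J to -0.44 and EIF4A2 to -0.61, of which EIF4A2 then passed the threshold in the nuclear direction. Centred on the protein-coding median, EIF4A2 turned to -0.0574. These sign changes follow from subtracting a constant. By the span of the MANE Select transcript, the median of members above 50 kb turned from 0.05 to -0.42, since EIF3E and EIF4E3 left that class. Bonferroni adjustment ended the calls of EIF2AK2, EIF2AK3, EIF2B3, EIF2S3B, EIF3A, EIF5A2 and EIF5AL1. No paired analysis was possible because the columns give a single mean and fold change for all libraries, and for the same reason no replicate could be left out and no other count test run. Among tested members, counts were low for EIF2S3B (about 24 nuclear and 73 cytoplasmic), EIF5AL1 (26 and 111), EIF4EBP3 (131 and 106), EIF5A2 (139 and 213) and EIF3CL (275 and 99), whose standard errors ran from 0.35 to 0.62.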

Other observations

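The table also holds 62 genes with an EIF symbol that are not protein-coding, 57 of them pseudogenes. Of the pseudogenes, 22 had a mean of 0 and 15 were tested, of which 5 were higher in the cytoplasmic fraction and none in the nuclear fraction, with a median log2 fold change of 2.25. Among all tested genes 25.9% were called cytoplasmic and 26.5% nuclear, so 5 of 15 is not far from the general cytoplasmic share. The median includes the pseudogenes that were not called, whose standard errors ran from 1.06 for EIF4A1P2 to 2.43 for EIF3LP3. The called ones were EIF3FP3 at 3.51, EIF4HP1 at 3.06, EIF4BP3 at 2.89, EIF4BP7 at 2.25 and EIF4A1P10 at 2.20, and their derived cytoplasmic means ran from 23.4 to 161 normalized counts. These are processed copies without introns of genes that were themselves cytoplasmic (EIF3F at 3.15, EIF4H at 2.38, EIF4B at 2.82 and EIF4A1 at 2.79), and the share of their reads that comes from the parent mRNA was not tested.

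Among 5 lncRNA genes named after a neighbouring initiation factor, 4 were tested. EIF1B-AS1, antisense to EIF1B, was at -2.27 (standard error 0.23, adjusted p = 5.51e-23), with means of 467 nuclear and 96.7 cytoplasmic counts, while EIF1B itself was at 1.70. EIF3J-DT, divergent to EIF3J, was at 1.33 (standard error 0.26, adjusted p = 6.66e-07), above EIF3J at 0.22. EIF2B5-DT was at 1.01 (adjusted p = 0.137) and EIF2AK3-DT at 0.83 (adjusted p = 0.297), and neither passed the threshold.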
